A study of Homo sapiens with 2 samples.

Results

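The let-7 microRNA genes described here were the 7 members of the family that lie on the 19 chromosomes covered by a list of RNA regions. The authors called these regions from a crosslinking pull-down of tagged RRN3. The members were MIRLET7A2, MIRLET7A3, MIRLET7B, MIRLET7C, MIRLET7E, MIRLET7G and MIRLET7I. A region, called a peak, was assigned to a gene when its midpoint fell inside the annotated gene body on the strand of the gene. By this rule 16 of the 7793 listed peaks belonged to let-7 genes, and 5 of the 7 genes had at least 1 peak. Among all 1509 annotated microRNA genes on the same chromosomes, 156 had a peak, or 10.3%. RRN3 is an initiation factor that brings RNA polymerase I to ribosomal RNA genes, and the study asked which RNAs it touches in ovarian cancer cells.

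PAR-CLIP was done in SK-OV-3, an established human ovarian cancer line, carrying a stable lentiviral V5-RRN3 construct driven by the EF1a promoter with the V5 tag at the N-terminus. Before harvest, cells were given 100 μM 4-thiouridine for 14 h, so that this uridine analogue entered new RNA, and UV light of 365 nm at 0.2 J/cm2 then linked it to bound protein. The input library represents 10% of the RNase A-treated lysate, taken before the anti-V5 pull-down, and the immunoprecipitate library holds the RNA that competing V5 peptide displaced from the antibody. There was 1 immunoprecipitate library and 1 input library, both from V5-RRN3 cells, so no value here has a replicate and no test across libraries was possible.

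let-7 genes encode short hairpin transcripts. The nuclear enzyme DROSHA with its partner DGCR8 releases the hairpin, DICER1 removes the loop, and 1 arm, usually the 5p arm, is loaded into an Argonaute protein as the mature microRNA. The seed, bases 2 to 8 of the mature microRNA, pairs with target messenger RNAs such as that of HMGA2, and let-7 is known as a brake on growth that is often low in ovarian and other cancers. LIN28 proteins block its maturation.

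The mature 5p sequences of the members are given first, because the peaks lay on them. They were taken from RefSeq (GRCh38.p14) and run 5′ to 3′, with the seed in capitals. The genes MIRLET7A2 and MIRLET7A3 both encode let-7a-5p, so the 7 genes give 6 lines.
let-7a-5p: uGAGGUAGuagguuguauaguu
let-7b-5p: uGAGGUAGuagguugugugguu
let-7c-5p: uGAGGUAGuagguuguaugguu
let-7e-5p: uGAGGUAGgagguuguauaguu
let-7g-5p: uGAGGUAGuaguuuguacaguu
let-7i-5p: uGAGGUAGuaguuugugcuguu

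All members share the seed and differ at few bases outside it. With let-7a-5p as the reference and positions counted from 1 at the 5′ end, let-7c-5p differed by A19G and let-7e-5p by U9G. The let-7b-5p sequence differed by A17G and A19G, and let-7g-5p by G12U and U18C. The most distant was let-7i-5p with 4 changes, G12U, A17G, U18C and A19U. Small as these differences are, they made each of the let-7b, let-7c, let-7e, let-7g and let-7i 5p sequences occur at 1 place in the genome, as exact matches on either strand of chromosomes 1 to 22, X and Y. The let-7a-5p sequence occurred at 3 places.

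The hairpins of the 5 genes with peaks are shown next, since the position of the peaks inside them is the main result. Each is the RefSeq hairpin, 5′ to 3′ on the strand of its gene, and capitals mark the bases that lay under a peak.
MIRLET7B: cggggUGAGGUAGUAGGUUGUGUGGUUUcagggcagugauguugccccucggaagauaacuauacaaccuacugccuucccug
MIRLET7C: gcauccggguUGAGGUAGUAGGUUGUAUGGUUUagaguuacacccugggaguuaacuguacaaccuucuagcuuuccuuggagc
MIRLET7E: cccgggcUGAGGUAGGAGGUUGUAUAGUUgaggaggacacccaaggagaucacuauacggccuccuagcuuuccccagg
MIRLET7G: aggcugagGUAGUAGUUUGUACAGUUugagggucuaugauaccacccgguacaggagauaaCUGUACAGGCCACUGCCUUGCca
MIRLET7I: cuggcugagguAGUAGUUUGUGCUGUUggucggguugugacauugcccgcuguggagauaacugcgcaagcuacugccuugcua

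The peaks followed the mature microRNAs and left the rest of the hairpins bare. In all 5 genes with a peak, peaks covered the 5p mature sequence, and in MIRLET7G they also covered the 3p sequence. The loop carried no peak in any of them, and beyond the mature sequences only 1 base in MIRLET7B and 1 base in MIRLET7C lay under a peak. For comparison, 86 of 728 mature 5p sequences of all microRNA genes on these chromosomes were overlapped by a peak, or 11.8%, and 68 of 735 mature 3p sequences, or 9.25%. Of the 471 peaks in microRNA genes of any family, 436, or 92.6%, overlapped a RefSeq mature sequence, so a position on the mature microRNA was the rule in this list and was shared by the let-7 genes.

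MIRLET7B lies at chr22:46113686-46113768 on the plus strand, in an exon of the long non-coding RNA MIRLET7BHG. It held 3 peaks. The first, chr22:46113691-46113703, covered bases 1 to 13 of let-7b-5p with a deposited fold enrichment over input of 3.61. The second, chr22:46113704-46113712, covered bases 14 to 22 with a fold enrichment of 3.08, and the third began at the same base and ended 1 base later, with a fold enrichment of 2.56. All 3 peaks were listed with a p-value of 0. Together they spanned all 22 bases of the mature sequence, the 7 seed bases included.

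MIRLET7C, at chr21:16539828-16539911 on the plus strand and in an exon of the non-coding host gene MIR99AHG, held 4 peaks. They split let-7c-5p into shorter pieces than in MIRLET7B. The first ended with the seed, covering bases 1 to 8, and had a fold enrichment of 2.56 and a p-value of 0. The second covered bases 9 to 16, with a fold enrichment of 2.38 and a p-value of 7.42e-265. The third covered bases 17 to 22, with a fold enrichment of 3.35 and a p-value of 2.37e-305. The last peak started at base 17 as well but ran 1 base past the mature sequence, and its listed p-value was 0 with a fold enrichment of 3.47. Thus the 22 bases of let-7c-5p were again covered from end to end.

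MIRLET7E lies at chr19:51692786-51692864 on the plus strand within an intron of SPACA6, a protein-coding gene with a role in fertilisation. Its 2 peaks met inside let-7e-5p and ended exactly where the mature sequence ended. The first covered bases 1 to 10 with a fold enrichment of 2.97, and the second covered bases 11 to 22 with a fold enrichment of 2.04, the lowest among the 16 let-7 peaks. Both were listed with a p-value of 0. An exon of SPACA6-AS1 lies across the hairpin on the opposite strand, and that gene held 0 peaks.

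MIRLET7G, at chr3:52268278-52268361 on the minus strand in an intron of WDR82, had the most peaks of the family with 5, and it was the only member with peaks on both arms. Its 3 peaks on the 5p arm covered bases 5 to 22 of let-7g-5p, that is 18 of 22 bases and 4 of the 7 seed bases. The peak nearest the 5′ end, on bases 5 to 11, had a fold enrichment of 3.93, the highest among the let-7 peaks. The other 2 both began at base 12 and ended at bases 21 and 22, with fold enrichments of 3.69 and 2.68. These 3 peaks were listed with a p-value of 0. On the 3p arm, chr3:52268291-52268300 covered bases 1 to 10 of let-7g-3p with a p-value of 2.47e-137, and chr3:52268280-52268290 covered bases 11 to 21 with a p-value of 2.78e-136. Their fold enrichments were 3.07 and 2.36. The 3p arm was therefore covered along all of its 21 bases, with p-values that ranked at 14.5% and 14.7% of the list, behind those of the 5p arm.

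MIRLET7I lies at chr12:62603686-62603769 on the plus strand, in an intron of MIRLET7IHG and in an exon of a second long non-coding gene annotated there. Its 2 peaks covered bases 7 to 15 and 16 to 22 of let-7i-5p, with fold enrichments of 2.54 and 2.71 and p-values of 0. They left the first 6 bases of the mature sequence free, so that 2 of the 7 seed bases lay under a peak, the fewest among the 5 genes.

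The 5p seed was thus touched by a peak in 5 of 7 genes, beside 11.7% of the 728 mature 5p sequences of all microRNA genes, and wholly covered in 3, MIRLET7B, MIRLET7C and MIRLET7E. In these 3 genes coverage began at base 1 of the mature sequence. The same start was seen in 67 of the 81 mature 5p sequences of other microRNA genes with a peak, or 82.7%. Coverage of the whole mature sequence was found for 3 of 5 let-7 genes and for 44 of those 81, or 54.3%. At the 3′ end, all 5 let-7 sequences were covered to base 22, whereas among other microRNA genes 48 of the 64 mature 5p sequences at least that long were covered there, or 75.0%. These shares were compared as a description and the differences were not tested.

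Joining peaks that touched gave 6 sites in let-7 genes, 16 to 23 bases long, each with 1 exact match in the genome. Together they held 123 bases, of which 49, or 39.8%, were U, the base that 4-thiouridine replaces. No share of U for other sites or for the rest of the hairpins is given beside it. The value therefore only describes the make-up of the covered bases. The site in MIRLET7I had the largest share of U, 50.0%, and the 3p site in MIRLET7G the smallest, 23.8%. The sites of the mature 5p sequences in MIRLET7B and MIRLET7C were each 43.5% U, that in MIRLET7E 36.4%, and the 5p site in MIRLET7G 44.4%.

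The 2 genes without a peak were MIRLET7A2, at chr11:122146522-122146593 on the minus strand in an intron of MIR100HG, and MIRLET7A3, at chr22:46112749-46112822 on the plus strand in an exon of MIRLET7BHG. MIRLET7A3 lies 863 bases from MIRLET7B in the same host gene, so a gene with 3 peaks and a gene with 0 lay in 1 host gene. Both peakless genes encode let-7a-5p, which has 3 exact matches in the genome, at these genes and at MIRLET7A1 on chromosome 9, which the list does not cover. The 3p sequence of MIRLET7A3 had 2 exact matches and that of MIRLET7A2 had 1.

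The same measure was taken for all mature microRNAs on the covered chromosomes. Of 592 mature 5p sequences with 1 exact match in the genome, 81 were overlapped by a peak, or 13.7%. Of 136 with more than 1 match, 5 were, or 3.68%. Without the let-7 genes the shares were 12.9% of 587 and 3.73% of 134. How the authors placed reads that match several loci is not given in the sources used here, and the part of repeated sequences in the absence of peaks from MIRLET7A2 and MIRLET7A3 was not tested. The 5 repeated 5p sequences with a peak each have 2 exact matches and are named here after their values were seen. The sequences of miR-125b-5p at MIR125B1, miR-16-5p at MIR16-2 and miR-194-5p at MIR194-2 were covered along 22 bases. That of miR-181b-5p at MIR181B1 was covered along 21 bases, and that of miR-625-5p at MIR625 along 1. A comparison added after seeing the data counted only microRNA genes whose mature sequences each had 1 match. Of 1050 such genes, 134 had a peak, or 12.8%, and the 5 let-7 genes with a peak are among them. This filter leaves out MIRLET7A2 and MIRLET7A3, already seen to lack peaks. The let-7 count of 5 of 5 was therefore fixed in advance and is not a result.

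By the deposited p-value the let-7 peaks stood near the top of the list. Of the 16, 12 were listed with a p-value of 0, or 75.0%, against 580 of all 7793 peaks, or 7.44%, and against 116 of the 455 peaks in other microRNA genes, or 25.5%. Each of the 5 genes had at least 1 such peak, beside 48 of the 151 other microRNA genes with a peak. With peaks ranked from the lowest p-value and ties at their mean rank, the median let-7 peak ranked at 3.73% of the list, the place shared by all peaks listed at 0, and the lowest-ranked let-7 peak at 14.7%. The median over peaks in other microRNA genes was 25.1%. The test behind these p-values is the authors' and is not described in the sources used here, and read depth at individual peaks was not examined.

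In fold enrichment the let-7 peaks did not stand out. Their values ran from 2.04 to 3.93 with a median of 2.84, while all peaks ran from 2.00 to 4.00 with a median of 3.00. Peaks that covered nearly the same bases could differ in fold enrichment, as with 3.69 and 2.68 for the overlapping pair on let-7g-5p, which shared 10 bases. The let-7 peaks were 6 to 13 bases long, with a median of 9.5, beside a median of 10.0 for all peaks. MIRLET7G, with 5 peaks, was exceeded by 11 microRNA genes, and MIRLET7C, with 4, by 22, while the median was 3 among both let-7 and all microRNA genes with a peak.

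The let-7 genes were set beside a pair of other microRNA families that are known for their part in cancer. The miR-200 family, which holds epithelial identity by repressing ZEB1 and ZEB2, had a peak in 5 of 5 genes with 10 peaks in all. The miR-17-92 cluster, a MYC-driven group that promotes growth, had a peak in 5 of 6 genes with 12 peaks. The families were chosen with earlier results of these data known, and their shares lay above the 10.3% of all microRNA genes as that of let-7 did, so a share far above the background was not particular to let-7. The p-values differed more: 9 of the 12 miR-17-92 peaks were listed at 0, or 75.0%, as in let-7, but 1 of the 10 miR-200 peaks, or 10.0%, and the median miR-200 peak ranked at 21.0% of the list. The 1 gene of the miR-17-92 cluster without a peak was MIR19B1, whose 3p sequence has 2 exact matches in the genome. MIR92A1, whose 3p sequence also has 2, had 1 peak, with a p-value of 3.94e-32.

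Several let-7 genes are transcribed with other microRNAs, and a set of 3 related clusters joins a let-7 gene to a member of the miR-99/100 family upstream and a miR-125 gene downstream. Their mature 5p sequences follow with the seed in capitals, because they show that the partners share seeds across the clusters just as the let-7 genes do.
miR-99a-5p: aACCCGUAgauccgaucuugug
miR-99b-5p: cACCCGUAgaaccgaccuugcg
miR-100-5p: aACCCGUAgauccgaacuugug
miR-125a-5p: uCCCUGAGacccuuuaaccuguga
miR-125b-5p: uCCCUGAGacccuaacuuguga

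In the cluster on chromosome 19 every gene had peaks. MIR99B, whose 5′ end lies 174 bases upstream of that of MIRLET7E, held 2 peaks listed at 0, which covered 19 of the 22 bases of miR-99b-5p from its first base. MIR125A, whose 5′ end lies 468 bases downstream, held 2 peaks over 23 of the 24 bases of miR-125a-5p, with p-values of 7.49e-103 and 9.17e-199. SPACA6 held 6 peaks in all, and these were the 6 peaks of the 3 microRNA genes. The host gene thus carried no peak outside them.

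On chromosome 21 the genes near each other had peaks and the distant one had none. MIR99A, whose 5′ end lies 739 bases upstream of that of MIRLET7C, held 3 peaks that covered all 22 bases of miR-99a-5p, with p-values from 8.74e-64 to 1.62e-18, well above the 0 to 7.42e-265 of MIRLET7C. MIR125B2, whose 5′ end lies 50409 bases downstream, had 0 peaks. The host gene MIR99AHG held 10 peaks, 7 in the microRNA genes and 3 elsewhere.

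On chromosome 11 both partners had peaks and the let-7 gene had none. MIR100, whose 5′ end lies 5715 bases upstream of that of MIRLET7A2, held 2 peaks that covered the 22 bases of miR-100-5p, with p-values of 3.04e-308 and 1.06e-229. MIR125B1, whose 5′ end lies 46749 bases downstream, held 5 peaks over both arms, covering 22 of 22 bases of the 5p and 21 of 22 bases of the 3p sequence, with p-values from 1.28e-136 to 4.88e-15. MIR100HG held 11 peaks, 7 in these genes and 4 elsewhere. Since miR-125b-5p is the same sequence at MIR125B1 and MIR125B2, which had 5 and 0 peaks, those 22 bases do not tell the genes apart, while the 3p sequence of MIR125B1 has 1 match in the genome.

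In total, 9 microRNA genes outside the let-7 family lay within 60 kb of a member on the same strand, and 5 of them had a peak, with 14 peaks together, beside 156 of all 1509 microRNA genes, or 10.3%. The 4 without a peak were MIR125B2, MIR135A1 near MIRLET7G, and MIR3619 and MIR4763 near MIRLET7B and MIRLET7A3. MIR4763 ends 28 bases before MIRLET7B begins. The first peak of MIRLET7B began at base 6 of its gene, so its peaks did not extend into this closest neighbour. MIRLET7I had no microRNA neighbour in this distance. Of the other host genes, WDR82 held 5 peaks, all in MIRLET7G, and MIRLET7IHG 2, both in MIRLET7I, whereas MIRLET7BHG held 5, of which 3 were in MIRLET7B. Peaks outside microRNA genes were thus found in MIR100HG, MIR99AHG and MIRLET7BHG, and in none of SPACA6, WDR82 and MIRLET7IHG. The host genes with such peaks are the longer ones, and the part of gene length was not tested.

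The let-7 seed also occurs in microRNAs with other names. RefSeq lists 14 genes whose mature sequence has the let-7a-5p seed, of which 9 lie on covered chromosomes, the 7 let-7 genes and a pair of others that are shown for comparison, seed in capitals.
miR-4458: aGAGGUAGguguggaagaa
miR-4500: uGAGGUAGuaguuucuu

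Of these 2, miR-4458 has 1 exact match in the genome and miR-4500 has 2, and 0 had a peak. MIRLET7A1, MIRLET7D, MIRLET7F1, MIRLET7F2 and MIR98, the remaining 5 genes, lie on chromosomes 9 and X and were not analysed here.

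The machinery that makes, controls and answers to let-7 was examined through lists of protein-coding genes, of which 35 lie on covered chromosomes. A peak on their own strand was found in 8 of the 35, or 22.9%, beside 2661 of 16702 protein-coding genes, or 15.9%. By role, these were 3 of 10 microRNA biogenesis genes, 2 of 7 let-7 regulators and 3 of 18 let-7 targets. Gene length went along with having a peak. The median length was 45691 bases for the listed genes and 27364 for all protein-coding genes, and 136767 and 96059 for those with a peak, and its part in these shares was not tested.

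**Figure D1:**
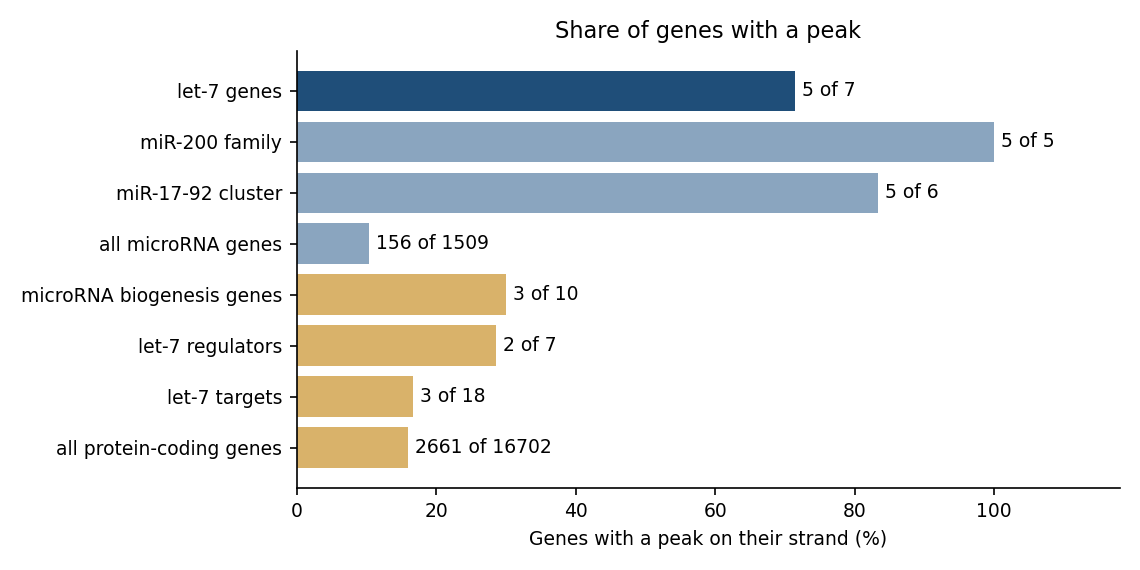
Percent of genes with a peak on their strand, for let-7 genes, microRNA families and all microRNA genes (blue) and for lists of protein-coding genes and all protein-coding genes (yellow), with counts beside the bars. The let-7 bar, 5 of 7, lies between those of the other families, 5 of 5 and 5 of 6, and that of all microRNA genes, 156 of 1509.

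Among the biogenesis genes, the nuclear pair that cuts the hairpin and the cytoplasmic enzyme that removes its loop all had peaks. DROSHA had 2, at chr5:31400665-31400675 and chr5:31400676-31400683 on the minus strand in an annotated UTR, with p-values of 1.52e-95 and 1.38e-95. DGCR8 had 3, in its coding sequence at chr22:20086072-20086093 on the plus strand, but these lay within MIR1306, a microRNA gene inside DGCR8 on the same strand. DICER1 had 4, in an intron at chr14:95137961-95137983 on the minus strand, all within the intronic microRNA gene MIR3173 and with p-values from 1.13e-06 to 0.000532, which ranked between 90.4% and 92.5% of the list. The peaks of DGCR8 and DICER1 were thus placed in microRNA genes, and DROSHA was the only biogenesis gene on the list with a peak outside a microRNA gene. The exporter XPO5 with RAN, the DICER1 partners TARBP2 and PRKRA, and AGO1, AGO3 and AGO4 had 0 peaks. AGO2 was not analysed here.

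Of the regulators, TUT4, which adds uridines to the let-7 precursor, and DIS3L2, the nuclease that degrades the uridylated precursor, had peaks. In TUT4 the 2 peaks lay in an intron, chr1:52418816-52418828 and chr1:52418829-52418836 on the minus strand, with p-values of 2.56e-110 and 2.12e-110. In DIS3L2 the 3 peaks abutted in an intron at chr2:232343018-232343042 on the plus strand, with p-values between 1.72e-131 and 1.97e-131. The RNA-binding proteins LIN28A, which recruits TUT4 to the precursor, and LIN28B had 0 peaks, as did TENT2, HNRNPA1 and KHSRP.

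Of the targets, HMGA2, a chromatin protein and the best known let-7 target, had 2 peaks in an intron, chr12:65826084-65826088 and chr12:65826089-65826098, with p-values of 1.23e-95 and 1.44e-95. IGF1R, the receptor of insulin-like growth factor 1, had 2 peaks in an intron at chr15:98654666-98654674 and chr15:98654675-98654681, with p-values of 1.18e-125 and 1.13e-125. THBS1, a secreted inhibitor of vessel growth, had 2 peaks in its coding sequence, chr15:39587458-39587462 and chr15:39587463-39587478, with p-values of 6.15e-38 and 1.14e-37. Other listed targets, among them NRAS and HRAS, the cyclins CCND1 and CCND2, CDC25A, CDC34, HMGA1, IGF2BP1, IGF2BP2, TRIM71, ARID3B, PLAGL2 and IGDCC3, had 0 peaks.

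Within each of these 8 genes the peaks joined into 1 site of 15 to 25 bases with 1 exact match in the genome, about the length of the let-7 sites. Of their 20 peaks 0 were listed with a p-value of 0, beside 7.44% of all peaks, and 7 of the 20 lay in microRNA genes. Without peaks in microRNA genes, a comparison added after seeing the data, 6 of the 35 listed genes had a peak, beside 15.6% of all protein-coding genes.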

How the data were processed

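PAR-CLIP libraries of 1 anti-V5 immunoprecipitate and 1 input were made by the authors with random-primed cDNA and adapters carrying molecular identifiers, and 1 list of peaks was deposited. The submitters' processing notes name GRCh38; aligner, peak caller and thresholds are not given in the sources used here. The deposited fold enrichment is a ratio of immunoprecipitate to input whose scaling is not stated. The authors also gave each peak a p-value, from a test not given in the sources used here, and a false discovery rate, which was 1 for all 7793 peaks. The deposited score was also 1 throughout. These values were used only to describe, rank and filter. Lengths equalled end minus start, so starts were taken to count from 0; positions are printed counted from 1.

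Peaks were placed by midpoint on GENCODE release 44, with overlaps of at least 1 base for mature sequences. All 1562 RefSeq hairpins compared were identical to the reference genome at their coordinates. All 7 members had a RefSeq hairpin, as had 1272 of the 1509 microRNA genes. Exact genome matches on either strand were counted over the autosomes, X and Y. Members, comparison families and gene lists were chosen with earlier results of these data known. Named were all members, microRNA genes within 60 kb, listed genes with a peak and microRNAs with the let-7a-5p seed. Host genes, some listed genes without a peak and single microRNA genes used for comparison were named as well. Single results of some listed targets are not reported here. Alternatives covered peak strength, placement, strand, gene boundaries, joining of peaks and exons. Functions were tested on simulated data. Tables were made with pandas 2.3.3, numpy 2.4.6 and scipy 1.17.1 under Python 3.11.15, and figures with matplotlib 3.10.9.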

Additional observations from a re-analysis of the deposited data

How the results depend on the processing

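Of 40 values computed under alternatives for 7 results, 5 of them added after seeing the data, 33 stayed close to the reported value, which here means a count within 1.5 times of it or a percent inside its 95% Wilson interval. The 1 alternative for the median rank is left out, since each of the 5 genes with a peak has 1 or more listed at 0 and the shared rank of such peaks could not move. The 33 still include the 50% and 10% cuts by p-value for let-7 genes with any peak, a 5p peak or a seed peak. These counts could not move either, because each of the 5 genes has a peak over the 5p seed listed at 0. Such peaks are kept by both cuts, so these values say nothing about stability. The same holds for the 5p, 3p and seed counts with touching peaks joined first, because joining leaves the same bases covered. Counting starts from 1 lengthened each peak by 1 base, so under it those counts could not fall. The count of 5 let-7 genes with a peak was 5 under each alternative run on placement, strand and gene boundaries. Any overlap, either strand and extended boundaries could only keep or raise that count. The 10% of the list with the lowest p-values held 779 peaks, more than the 580 listed at 0. The 16 peaks became 14 in that 10% and 6 when touching peaks were joined. The 1 gene with a peak on the 3p arm became 0 in that 10%. The 5 genes with a peak over the 5p seed became 3 when the whole seed had to lie inside 1 peak. The percent of microRNA genes with a peak fell from 10.3% (95% Wilson interval 8.90% to 12.0%, counting error only) to 8.42% in the 50% of the list with the lowest p-values and to 3.98% in the 10% with the lowest, and was 12.8% over genes whose mature sequences each match the genome at 1 place. Of the 8 biogenesis genes, regulators and targets with a peak, 3 had a peak in an exon. That count of 8 became 6 in the 50% of the list with the lowest p-values, 6 without peaks in microRNA genes and 10 when peaks on either strand were counted, all within the 1.5 times. With 1 library of each kind the reproducibility of any peak is unknown, and absence of a peak does not show absence of RNA or of binding. The share of reads behind each peak was not analysed.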

Other observations

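Over all microRNA genes with both arms in RefSeq, 128 of 677 had a peak on at least 1 arm. Of these 128, 65 had peaks on the 5p arm only, 43 on the 3p arm only and 20 on both, or 50.8%, 33.6% and 15.6%. MIRLET7B, MIRLET7C, MIRLET7E and MIRLET7I belong to the first of these groups and MIRLET7G to the last. MIRLET7G and MIR125B1 were the members or neighbours with peaks on both arms.

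Where 2 peaks met inside a mature sequence of a let-7 gene, the meeting point differed from gene to gene. It lay after base 13 in let-7b-5p, after bases 8 and 16 in let-7c-5p, after base 10 in let-7e-5p, after base 11 in let-7g-5p and after base 15 in let-7i-5p, and on the 3p arm of MIRLET7G after base 10. A pair of peaks sharing most of their bases was listed in MIRLET7B, MIRLET7C and MIRLET7G, with 9, 6 and 10 shared bases.

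Across the 7793 peaks, which all come from the same pair of libraries, the deposited fold enrichment and p-value had a Spearman correlation of 0.02. This is a description across peaks, which are not replicates.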
